A study of Mus musculus with 2 samples.

Results

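The miR-29 family comprises 4 hairpin genes of the 2202 miRNA genes in the tables: Mir29a and Mir29b-1 on chromosome 6, and Mir29b-2 and Mir29c on chromosome 1. They were chosen by name, as the annotated hairpins of the family, and not by their values, although earlier results of these data were known. The adrenal glands came from 2 females of the F1 hybrid strain B6CASTF1/J, each 2 months old, with no treatment named in the labels. Both glands belong to the single group of the study, so no contrast between conditions could be drawn. The tissue labels number different females under a single donor label, and if both glands came from one source the spread between them would be technical.

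A miRNA gene is transcribed into a hairpin RNA, from which a short mature miRNA is cut out of either arm (5p or 3p). The mature miRNA pairs with messenger RNAs mainly through its seed, bases 2 to 8, and lowers their output. The miR-29 family is known for repressing collagens, elastin and other components of the extracellular matrix, and it is abundant in many adult tissues. The adrenal gland is enclosed in a collagen-rich capsule, and a basement membrane surrounds its steroid-producing cortical cells and its vessels.

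The sequences decide which reads could be assigned to a member, so they are shown first. RefSeq (GRCm38.p6) held mature and hairpin sequences for all 4 genes, and the 4 hairpins were identical in GENCODE M21. The 3p arm carries the family seed, here in capitals.
miR-29a-3p: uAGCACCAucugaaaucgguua
miR-29b-3p: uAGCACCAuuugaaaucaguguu
miR-29c-3p: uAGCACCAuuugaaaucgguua
Counted from 1 at the 5′ end, miR-29a-3p and miR-29c-3p differed by a single base, C10U, over 22 positions. miR-29b-3p differed from miR-29a-3p by C10U, G18A, U21G and A22U and was 1 base longer. Among the 1738 mature entries of the table, the seed AGCACCA at bases 2 to 8 was found in 4 entries, all from these genes, which gave 3 different sequences.

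The 5p arms did not share a seed. Bases 2 to 8 are again in capitals.
miR-29a-5p: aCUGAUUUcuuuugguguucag
miR-29b-1-5p: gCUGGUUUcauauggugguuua
miR-29b-2-5p: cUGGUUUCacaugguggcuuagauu
miR-29c-5p: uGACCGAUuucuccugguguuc
The longest stretch in common between the 5p arms of Mir29b-1 and Mir29b-2 was 9 bases. A 5p read of either gene could therefore be told from the other.

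The 3p arms of these 2 genes could not be told apart, as their hairpins show. The stretch that both share is in capitals.
Mir29b-1: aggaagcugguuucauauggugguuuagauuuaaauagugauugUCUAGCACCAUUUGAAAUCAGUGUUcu
Mir29b-2: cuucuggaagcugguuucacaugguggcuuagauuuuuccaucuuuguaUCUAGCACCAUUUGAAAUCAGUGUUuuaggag
The shared stretch was 25 bases long and held the 23 bases of miR-29b-3p with 2 bases before it and 0 after it. A read that lies wholly inside it matches both loci equally, and the tables hold reads with several places in a separate row that names no gene. A 3p read that reaches past the stretch matches a single locus. Bases that differ between the alleles of the hybrid were not analysed here. Mir29b-1 also shared 22 bases with Mir29c, starting upstream of the mature 3p end and ending inside it, so that a whole miR-29c-3p read matches Mir29c alone when every base must agree. Mir29a shared no stretch of 20 bases with another annotated hairpin.

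The members lie in close pairs (mm10, counted from 1). Mir29a (ENSMUSG00000065610.1) occupies chromosome 6 from 31062660 to 31062747 and Mir29b-1 (ENSMUSG00000065604.2) from 31063023 to 31063093, both on the minus strand with 275 bases between them. Mir29a overlaps no other annotated transcript, and Mir29b-1 overlaps the last 2 bases of the noncoding transcript Gm27019. Mir29b-2 (ENSMUSG00000065412.3) occupies chromosome 1 from 195037040 to 195037120 and Mir29c (ENSMUSG00000065548.1) from 195037547 to 195037634, both on the plus strand with 426 bases between them. Both lie in an exon of a retained-intron transcript of the noncoding gene A330023F24Rik. On the opposite strand, both lie in a 3′ untranslated region of Cd46, a complement regulator. None of the 4 genes had an antisense count in either library, where a count of 0 allows up to 3 counts.

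The family was represented almost entirely by Mir29a and Mir29c. Counts are reads assigned to a hairpin gene on its strand, and CPM is that count per 1000000 gene counts of the library, which totalled 2839732 in replicate 1 and 2280028 in replicate 2. A mature miRNA is read whole, so a count stands for a read and does not grow with the length of the gene. It is not a number of molecules. The 4 genes held 22234 counts in replicate 1, or 0.783% of the gene counts (Clopper-Pearson 95% interval 0.773 to 0.793), and 21139 in replicate 2, or 0.927% (0.915 to 0.940). The share was thus 0.855% ± 0.102 (SD, n = 2). These and all other intervals cover counting error only.

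Mir29a, which encodes the 3p form with C at base 10, had 18746 counts in replicate 1 and 18126 in replicate 2, or 6601 and 7950 CPM (7276 ± 954 CPM, n = 2). It was the 25th most abundant of all 2202 genes by mean CPM and held 84.3% and 85.7% of the family's counts. Mir29c had 3255 and 2893 counts, or 1146 and 1269 CPM (1208 ± 86.7 CPM), rank 73 in both libraries, and held 14.6% and 13.7% of the family's counts. Both genes were somewhat higher in replicate 2 on this scale. In a whole gland, fewer cells of a type and less RNA per cell cannot be told apart.

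The hairpins of the shared mature miRNA were far lower. Mir29b-1 had 139 counts in replicate 1 and 58 in replicate 2, or 48.9 and 25.4 CPM (37.2 ± 16.6 CPM, rank 236). Mir29b-2 had 94 and 62 counts, or 33.1 and 27.2 CPM (30.1 ± 4.18 CPM, rank 250). Both were lower in replicate 2. All 4 members had at least 10 counts in both libraries, as did 342 of the 2202 genes.

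**Figure D1:**
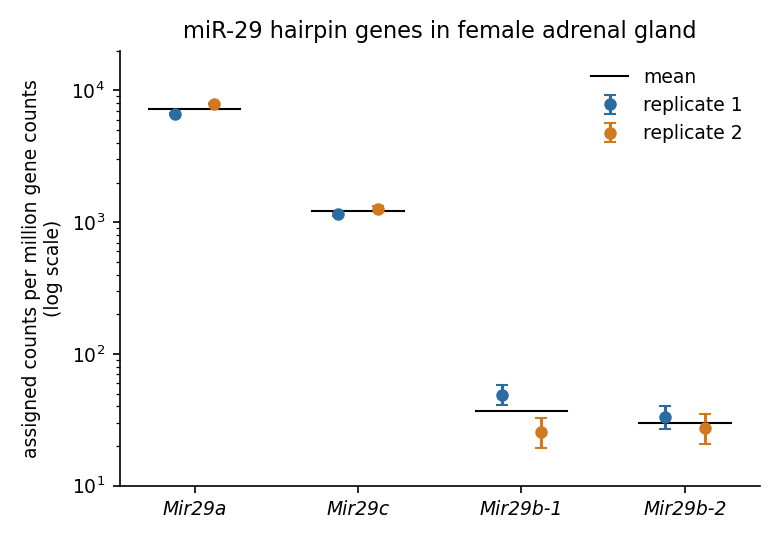
CPM of the 4 miR-29 hairpin genes on a log axis in replicate 1 (blue) and replicate 2 (orange), with 95% intervals for counting error, which are narrower than the points for the abundant genes, and the mean of both libraries as a bar. Mir29a and Mir29c stand at 1146 CPM or more in both libraries and both Mir29b hairpins at 48.9 CPM or less.

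The order of the levels was Mir29a, Mir29c and then the 2 Mir29b hairpins. Members were held to differ beyond their spread when their order was the same in both libraries and their means differed by more than the sum of the SDs. Mir29a exceeded Mir29c by 5.76-fold in replicate 1 (95% interval 5.55 to 5.98) and 6.27-fold in replicate 2 (6.02 to 6.52), a mean difference of 6068 CPM against summed SDs of 1040.3 CPM. Mir29c exceeded Mir29b-1 by 23.4-fold and 49.9-fold, and Mir29b-2 by 34.6-fold and 46.7-fold, both beyond the spread. These ratios describe assigned reads and give no ratio of miR-29b to its relatives. The 2 Mir29b hairpins did not differ beyond their spread: Mir29b-1 over Mir29b-2 was 1.48 in replicate 1 (1.13 to 1.94) but 0.935 in replicate 2 (0.643 to 1.36). The order thus changed. Summed over each locus, the chromosome 6 pair exceeded the chromosome 1 pair by 5.64-fold (5.44 to 5.85) and 6.15-fold (5.92 to 6.40) respectively, with 5.90 ± 0.364 as the mean of both libraries.

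The counts of Mir29b hairpins beside their own neighbours were compared with other hairpins in the same position. Of 92 genes in the tables with a mature sequence identical to that of another gene, 44 had at least 10 counts in both libraries, with a median of 49.6 CPM. Among 926 genes without such a sequence, 266 did, with a median of 179 CPM. Within 1 kb on the same strand, 14 detected genes with a shared mature sequence had a detected neighbour without one. Mir29b-1 had 0.741 counts per 100 counts of Mir29a in replicate 1 (0.623 to 0.876) and 0.320 in replicate 2 (0.243 to 0.414), the lowest of the 14. Mir29b-2 had 2.89 (2.33 to 3.55) and 2.14 counts (1.64 to 2.76) per 100 counts of Mir29c, the fourth lowest. Mirlet7c-2 beside Mirlet7b, at 1.44 ± 0.352 per 100, and Mir24-1 beside Mir27b, at 1.52 ± 0.0984, lay between them. The 14 values had a median of 16.8 per 100 and reached 751 for Mir92-2 beside Mir363. Over the whole library, and not only at miRNA genes, replicate 1 held 2673681 reads with several places and replicate 2 held 2193599. How many of them came from miR-29b-3p was not tested.

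**Figure D2:**
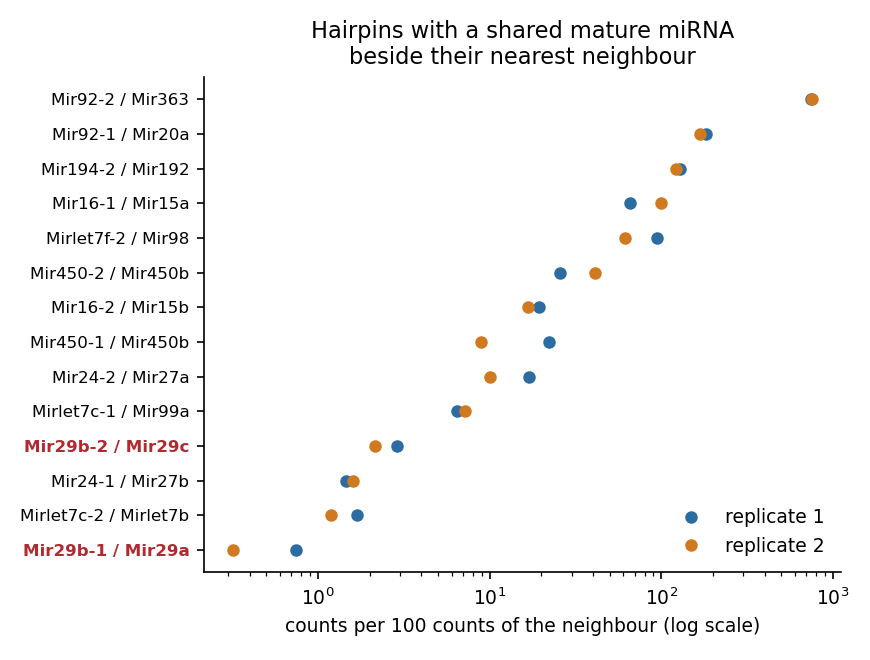
Counts of a hairpin with a shared mature miRNA per 100 counts of its nearest neighbour without one (log axis), for 14 pairs in replicate 1 (blue) and replicate 2 (orange), with the miR-29 pairs in red. Mir29b-1 beside Mir29a is the lowest pair, and Mir29b-2 beside Mir29c the fourth lowest.

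The genes at nearly the same level in both libraries, by Euclidean distance in log2(CPM + 1), place the members in the profile. This likeness rests on 2 libraries and is one of level. Nearest to Mir29a were Mir30a (7077 ± 117 CPM), Mir28a (6058 ± 1185 CPM) and Mir191 (6804 ± 1015 CPM), at distances of 0.22, 0.40 and 0.43. Nearest to Mir29c was Mir145a, known from smooth muscle and pericytes, with 3195 and 2946 counts (1209 ± 118 CPM, distance 0.04). Mir15a and Mir425 followed at 0.20 and 0.21. Mir29b-1 lay nearest to Mir212, Mir3099 and Mir1291 (0.31 to 0.33), and Mir29b-2 to Mir496a, Mir539 and Mir192 (0.12 to 0.19).

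Between the libraries, the abundant members differed little and Mir29b-1 differed most. The ratio of CPM in replicate 2 to replicate 1 was 1.20 for Mir29a (95% interval 1.18 to 1.23) and 1.11 for Mir29c (1.05 to 1.16). It was 0.520 for Mir29b-1 (0.376 to 0.711) and 0.821 for Mir29b-2 (0.586 to 1.14). The family as a whole had a ratio of 1.18 (1.16 to 1.21). An exact two-sided binomial test with Benjamini-Hochberg adjustment was run on the 369 genes that averaged 10 counts or more, and it compares these 2 libraries, not conditions. A gene was called when it differed 2-fold or more and its adjusted p was below 0.05. By this rule 0 of the 4 members were called, against 69 of the 369 genes (18.7%). By adjusted p alone, 3 of the 4 passed, against 231 of the 369 (62.6%). Without adjustment 3 of 4 had a p under 0.05, against 238 of the 369. With TMM, median-of-ratios factors or all reads as the total, 2 of 4 passed by adjusted p alone, as Mir29c then had an adjusted p of 0.496, 0.710 and 0.088 in the exact test. The share of all genes that passed by adjusted p alone is not given for these scalings. The adjusted p values of the exact test were 3.2e-70 for Mir29a, 1.6e-04 for Mir29c, 3.6e-05 for Mir29b-1 and 0.337 for Mir29b-2.

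In size, the members' log2 differences had a median of 0.28, against 0.45 for all genes tested. Among 82 genes with at least 5000 counts in both libraries together, 51 differed more than Mir29a, and among 59 genes with 100 to 300 counts, 15 differed more than Mir29b-1. Mir29b-1, at a log2 ratio of -0.94, lay just inside the 2-fold line and crossed it with other scalings: it reached -1.06 with TMM and -1.11 with median-of-ratios size factors and was then called. With these scalings 67 and 68 of all 369 genes tested were called. For Mir29c the direction depended on the scaling: its log2 ratio was 0.15 as counted, 0.03 with TMM and -0.02 with median-of-ratios factors. TMM and median-of-ratios scaling moved every gene by -0.12 and -0.16 on the log2 scale.

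**Figure D3:**
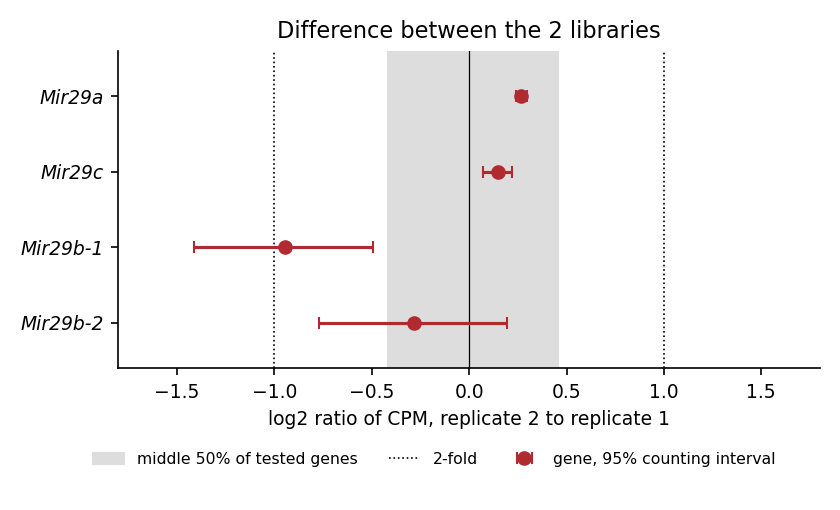
Log2 ratio of CPM in replicate 2 to replicate 1 for each miR-29 gene with its 95% counting interval, beside the middle 50% of the tested genes (grey, -0.42 to 0.45) and the 2-fold lines (dotted). Mir29a, Mir29c and Mir29b-2 lie within the grey band, and Mir29b-1 lies outside it with an interval that crosses the 2-fold line.

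Ratios between genes of the same library do not depend on the scaling. Mir29b-1 per Mir29a was 2.32-fold higher in replicate 1 than in replicate 2 (conditional exact 95% interval 1.69 to 3.21). Mir29b-2 per Mir29c was 1.35-fold higher there (0.963 to 1.90), an interval that includes no difference. Mir29a per Mir29c, a ratio between the loci, was 0.919-fold in replicate 1 relative to replicate 2 (0.870 to 0.971). Some markers of other tissues and cell types also differed between the libraries, where 18.7% of all tested genes were called. The 9 muscle miRNAs summed to 953 CPM in replicate 1 but 4.39 in replicate 2. The replicate 1 sum came mainly from Mir206 (534 CPM), Mir499 (288 CPM) and Mir208b (125 CPM). These were the only 3 of the 9 tested, and all were called. Mir133a-1, Mir133a-2 and Mir133b stood at 0 assigned counts in both libraries. Such a 0 leaves out reads with several places, which name no gene. The 3 erythroid miRNAs summed to 643 and 14488 CPM, of which Mir451a made up 469 and 13557 CPM, while Mir486 stood at 65.9 and 58.3 CPM and was not called. The 4 leukocyte miRNAs summed to 1331 and 1051 CPM, and of these only Mir223 was called, higher in replicate 1. The endothelial Mir126a stood at 43203 and 59463 CPM and hepatocyte Mir122 at 3721 and 2358 CPM, and neither was called. The 8 kidney and gut miRNAs summed to 170 and 115 CPM. Of the 7 tested, 3 were called, all higher in replicate 1. The part of all these markers in the miR-29 ratios was not tested.

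**Figure D4:**
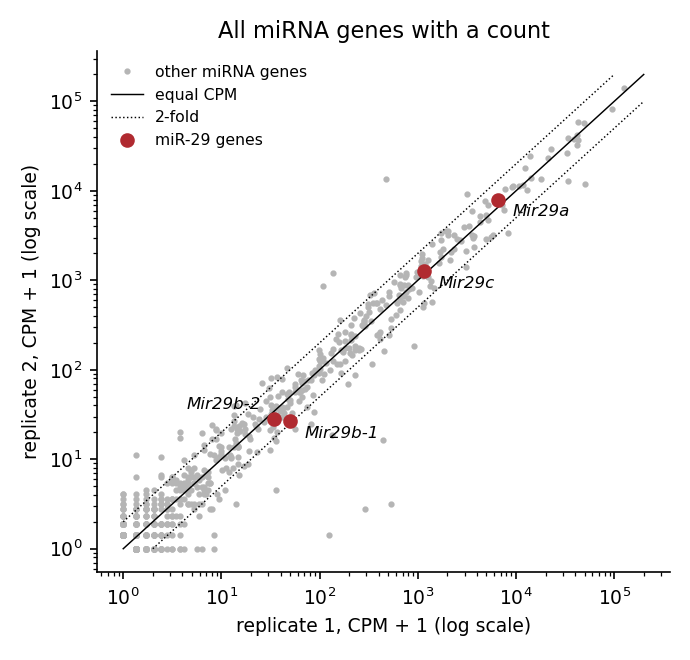
CPM + 1 in replicate 1 (horizontal) and replicate 2 (vertical) for every miRNA gene with a count, on log axes, with the line of equal CPM and dotted 2-fold lines. The 4 miR-29 genes (red) lie within the 2-fold lines, Mir29b-1 closest to the lower one.

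The level of the family was set beside other miRNAs with a described part in fibroblasts or matrix, a list of 42 genes. Of these, 31 had at least 10 counts in both libraries, from 4.57 to 23312 CPM. Mir29a was exceeded by 4 of the 42 genes and Mir29c by 9. The highest were Mir21a, known from injury and fibrosis (33612 and 13012 CPM), Mir143 of smooth muscle (22074 ± 1463 CPM) and Mir26b (15797 ± 3251 CPM). By the exact binomial test on 36 of them, 0 were called higher in replicate 2 and 10 in replicate 1, and by an unadjusted p under 0.05 alone these numbers were 10 and 17. Of the 10 called, 6 also stand in lists of other tissues or of cortex: Mir208b among muscle miRNAs, Mir200a, Mir200b and Mir429 among kidney and gut miRNAs, and Mir21a and Mir132 among cortical miRNAs. The others were Mir101a, Mir24-2, Mir26a-1 and Mir26a-2. Mir24-2 has a mature sequence shared with another gene, so its reads with several places were not assigned. The counts of Mir101a, Mir26a-1 and Mir26a-2 leave out such reads as well. How many of those reads came from these genes was not tested. Over all 369 genes tested, 8.67% were called higher in replicate 2 and 10% in replicate 1, and 238 had an unadjusted p under 0.05 in either direction. The median log2 ratio of the list was -0.11, against 0.07 over all genes tested. The 6 fibroblast and smooth muscle markers summed to 23180 CPM in replicate 1 against 25529 CPM in replicate 2, and by the exact binomial test 0 of the 5 tested were called (3 with an unadjusted p under 0.05). Mir199a-1 had 0 assigned counts in both libraries. This 0 and the sum of the 6 markers leave out reads with several places, so they do not show that a miRNA is absent. Of 3 listed neuroendocrine miRNAs, Mir375 (38600 ± 1160 CPM) and Mir7b were detected, and Mir7a-1 had no entry under that name. An entry named Mir7-1, left out of the list, was detected with 605 counts in replicate 1 and 334 in replicate 2. Detected too were 6 of 6 miRNAs described in steroidogenic cells, of which Mir21a and Mir132 also stand in the fibroblast and matrix list. Detection alone does not establish the tissue. These 6 summed to 41660 and 24733 CPM, and 3 of them (Mir21a, Mir132 and Mir483) were called higher in replicate 1. Without Mir21a, the other 5 summed to 8048 CPM in replicate 1 but 11721 CPM in replicate 2.

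Messenger RNAs were not measured, so the reach of the seed was described in the annotation alone. The site that pairs with bases 2 to 8 reads TGGTGCT in the sense strand of a transcript, and an A after it makes the 8-base site TGGTGCTA. Each gene was represented by the protein-coding GENCODE M21 transcript with the longest 3′ untranslated region, and only the sense strand was searched. A 7-base match was found in 2733 of 20885 genes (13.1%) and an 8-base match in 597 (2.86%). Among the 44 collagen genes, 25 had a 7-base match (56.8%) and 16 an 8-base match (36.4%), with 6.93 matches per 10 kb of sequence against 1.06 over all genes. The median length of the region was similar, 1033 bases in collagens and 958 over all genes. Matches stood in 9 of 11 fibrillar collagens, which build tissue fibres, and in 6 of 6 type IV collagens, which build basement membranes. Col1a2 and Col11a2 were the fibrillar collagens without a match.

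The first 8-base match of 4 matrix genes is printed below with the bases before it, the match in capitals.
Col1a1: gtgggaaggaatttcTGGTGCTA
Col3a1: ttcaaaatgtctcaaTGGTGCTA
Col4a1: gccaccgtcacaacaTGGTGCTA
Eln: cgacctcatcaacgtTGGTGCTA
They lie in mm10 at chr11:94952523-94952545 (plus strand), chr1:45348967-45348989 (plus), chr8:11199761-11199783 (minus) and chr5:134703736-134703758 (minus). Eln, which encodes elastin, held 3 matches, 2 of them of 8 bases. Of the 20 other matrix genes listed, 8 had a 7-base match, and Fn1, Dcn and Postn had 0. A match is a description of letters and does not show that a miRNA binds there, and these genes were listed because many are known targets.

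**Figure D5:**
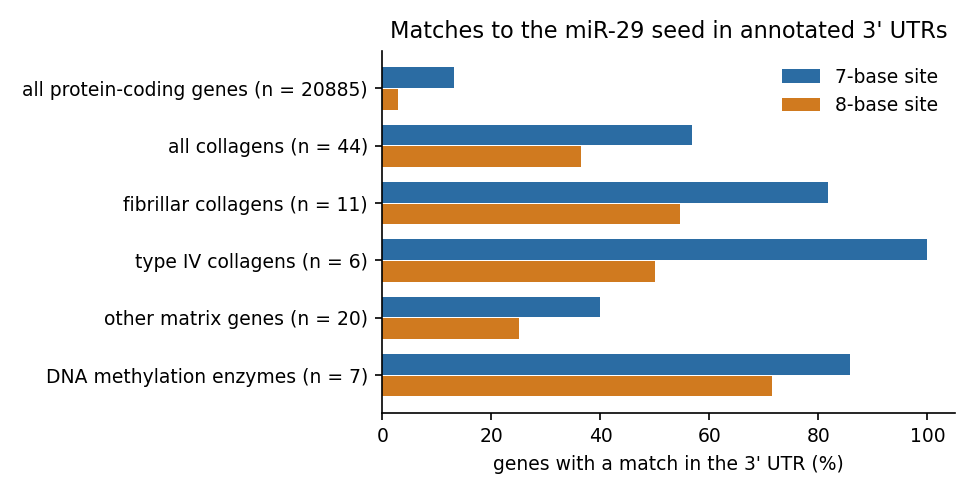
Percent of genes with at least 1 match to the 7-base site (blue) and 8-base site (orange) of the miR-29 seed in the annotated 3′ untranslated region, for all protein-coding genes and 5 gene lists (number of genes in brackets). The shares were 13.1% and 2.86% over all genes and 56.8% and 36.4% over collagens.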

How the data were processed

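MicroRNA-seq of RNA under 30 bases was deposited for 2 samples of 1 group. The deposited values are raw read counts per miRNA hairpin gene, not normalized, made by the authors on mm10 with GENCODE M21, per the labels and the sample information files. No aligner or counter is given in the sources used here. The tables hold unstranded, sense and antisense counts, and the sense column, which had the larger of the single-strand totals, was used. The 4 rows that name no gene (unmapped 29.8% and 39.7%, several places 28.8% and 25.3%, no gene 10.8% and 8.60%, ambiguous 8.6e-05% and 0% of reads) were left out of totals. All 2202 identifiers matched GENCODE M21. Gene counts were 30.6% and 26.3% of 9278190 and 8659511 reads, and a count was worth 0.352 and 0.439 CPM.

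Replicates were compared by an exact binomial test with Benjamini-Hochberg adjustment over genes averaging 10 counts or more (scipy 1.17.1). The binomial test and the sequence searches were tried on simulated data. The simulated counts held counting error alone, so they do not vouch for the calls between these libraries. Alternative scalings came from edgeR 4.0.16 (TMM) and DESeq2 1.42.0 (median of ratios). Named genes were the members, the 3 nearest genes to each, other carriers of the seed and up to 3 leading genes of each list, and others were named after their values were seen. Members and lists were chosen with earlier results of these data known. Alternatives were strand, scaling, denominator, hairpin length, count filter and leaving out a replicate.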

Additional observations from a re-analysis of the deposited data

Results flagged for a closer look

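Reads that matched several places are listed here because they name no gene and enter no comparison. Replicate 1 held 2673681 such reads and replicate 2 held 2193599, which is 94.2 and 96.2 for every 100 gene counts. They were not restricted to miRNA genes, and the share of miRNAs or of miR-29b-3p among them was not tested.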

How the results depend on the processing

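Of 70 recomputed values, 51 kept their side of the threshold or moved by less than the SD. This number is no measure of robustness, since part of it was fixed in advance. With 2 libraries, leaving a replicate out always moves a level, share or ratio of the loci by less than the SD. The ratio of the loci without regard to strand uses the members' counts alone and could not change. Nor could the count filters change a member's log2 ratio. Counted without regard to strand, Mir29a was at 8468 CPM, Mir29b-2 at 35.0 CPM and Mir29c at 1404 CPM, and the family share was 0.995%. The members' own counts were identical, and the total of gene counts was smaller. With all reads of the table as the total, the levels were 2057, 10.8, 8.65 and 342 per 1000000 reads for Mir29a, Mir29b-1, Mir29b-2 and Mir29c, and the family share 0.242%, by construction of the larger total. Mir29b-1 was called, as 1 of 4 members, with TMM (log2 ratio -1.06), median-of-ratios scaling (-1.11) and the total of all reads (-1.16), and not with the other settings that tested it. Of all 369 genes tested, 67, 68 and 67 were called with these 3 scalings. The Mir29c log2 ratio reversed from 0.15 to -0.018 with median-of-ratios scaling and -0.071 with all reads, by construction, since these totals move every gene's log2 ratio by -0.16 and -0.22. With genes averaging 100 counts or more, 33 of 234 genes were called in place of 69 of 369, and only Mir29a and Mir29c remained among the members tested. Leaving out a replicate gave 6601 to 7950 CPM for Mir29a, 25.4 to 48.9 for Mir29b-1, 27.2 to 33.1 for Mir29b-2 and 1146 to 1269 for Mir29c, 0.783% to 0.927% for the family and 5.64 to 6.15 for the ratio of the loci. Without replicate 1, Mir29b-2 stood above Mir29b-1, so 2 of the 4 genes kept their place in the order. Per base of hairpin the order was the same. Depth limits the Mir29b hairpins, at 58 to 139 counts. No paired analysis was possible because the design has a single group.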

Other observations

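The letters of the seed also occurred in 2 mature miRNAs outside the family, shifted from bases 2 to 8. They are shown with these letters in capitals.
miR-770-5p: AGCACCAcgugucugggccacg
miR-3547-3p: ugAGCACCAccccucucucag
The match starts at base 1 in miR-770-5p and at base 3 in miR-3547-3p. Mir770 had 1842 counts in replicate 1 and 1558 in replicate 2 (666 ± 24.5 CPM), and Mir3547 had 65 and 62 counts (25.0 ± 3.04 CPM). Hairpin counts do not tell the arms apart, so the level of these arms is not known.

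Enzymes of DNA methylation and demethylation, known targets of the family, were listed beside the matrix genes. The 7-base site stood in the 3′ untranslated region of 6 of 7, with 29 matches in all and 10.7 per 10 kb, against 1.06 over all genes. Tet3, a demethylation enzyme, held 8 matches, Tet1 held 7, and Tet2 and the methyltransferase Dnmt3a held 5 each. Dnmt1, the maintenance methyltransferase, held 0 in 312 bases. These regions were long, with a median of 3058 bases.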
